A study of Homo sapiens with 6 samples.

Results

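The 33 genes described here encode proteins that make ribosomes in the nucleolus. They are the core proteins of the small nucleolar RNA particles (snoRNPs), abundant nucleolar proteins, subunits and factors of RNA polymerase I, and processing factors of the small (40S) and large (60S) ribosomal subunits. They were chosen by symbol from a list of nucleolar, rRNA processing and RNA polymerase I genes, and all 33 matched 1 ID each among the 59715 gene IDs of the deposited table. The cells were HCT116, a long-established line from a human colorectal carcinoma, and poly(A)-selected RNA was sequenced in 3 libraries of MLL4 knockout cells (MLL4KO) and 3 of wild-type cells (MLL4WT). MLL4 is the name of a histone methyltransferase, and both groups were grown in the same serum-containing medium with no treatment named. The sources used here do not say where the gene was disrupted, whether either line is 1 clone, or whether each library had a culture of its own, so p-values measure the spread between these libraries. The RNA comes from whole cultures, in which fewer cells expressing a gene and less RNA per cell cannot be told apart.

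Ribosome synthesis starts when RNA polymerase I copies the ribosomal RNA genes into a long precursor. Box C/D and H/ACA snoRNPs then methylate and pseudouridylate that precursor, a large assembly called the small subunit processome forms on it, and separate sets of factors build the 40S and 60S particles. The genes are active in all growing cells, and many are known targets of the transcription factor MYC, which is deregulated in many colorectal tumours.

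Library totals ran from 14775580 to 19736751 counts in MLL4KO and from 6829400 to 17828774 in MLL4WT, where replicate 1 was the shallowest. All 33 genes passed the filter on low counts, with between 297 and 40151 counts per library. Levels are CPM, counts relative to a library's TMM-scaled total, and a gene is said to rise or fall where the edgeR quasi-likelihood test, adjusted over all 14543 tested genes, gave p under 0.05. KMT2D, the gene usually called MLL4, was at 232 ± 9.56 CPM in MLL4KO and 235 ± 4.60 CPM in MLL4WT, and KMT2B, which has carried the same name, fell (edgeR adjusted p = 2.33e-05), with 63.2 ± 3.45 CPM in MLL4KO and 90.5 ± 3.44 CPM in MLL4WT (SD, n = 3 each). A small deletion is not visible in whole-gene counts, so these values do not check the labels. Of 10 epithelial markers 9 were tested and 7 fell, where 21.6% of all tested genes fell. Before TMM scaling the 10 summed to 1173 to 1197 CPM per MLL4KO library and 1713 to 1741 CPM per MLL4WT library. The 14 markers of other cell types summed to 38.7 to 42.6 CPM in MLL4KO and 28.6 to 34.1 CPM in MLL4WT, and each of the 14 had a count in some library. Only 6 of the 14 were tested, of which 2 rose and 0 fell, where 19.8% of all tested genes rose. The mitochondrial chromosome held 2.86% to 3.30% of counts in MLL4KO and 2.84% to 3.47% in MLL4WT. The part of these differences in the results below was not tested.

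Of the 33 genes, 11 were lower in MLL4KO, 1 was higher and 21 missed the threshold. That is 33.3% lower and 3.03% higher, where 21.6% of all tested genes were lower, 19.8% were higher and 41.4% were called either way. The largest fall was that of RRP9, a protein of the U3 snoRNP, at 1.56-fold, and the largest change upward was that of WDR12, a 60S assembly factor, at 1.13-fold. With all libraries the falls lay mainly among the 40S and 60S processing factors (8 of 15), while no core protein of the box C/D or H/ACA snoRNPs (0 of 7) was called by edgeR, with 1 of the 7, NOP56, at an unadjusted p under 0.05. Without MLL4WT replicate 1, 4 of 4 abundant nucleolar, 2 of 5 RNA polymerase I, 1 of 3 box C/D and 1 of 4 H/ACA genes were also lower. In that fit 25.7% of all tested genes were lower. The difference between roles was not tested. The members' median log2 fold change was -0.07 against -0.004 for all tested genes. The pooled SD of the members' library medians was 0.063 on the log2 scale, about the size of that median. With total counts in place of TMM, which shifts all genes upward, the members' median was -0.004 against 0.058. The MLL4KO and MLL4WT libraries did not overlap for 12 genes or 36.4%, 10 of them lower and 2 higher. Of all tested genes 52.5% did not overlap, 26.6% lower and 25.9% higher. Of the 12 called genes, 10 were called in every alternative that measured them, while the fall of DDX21 and the rise of WDR12 were not.

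**Figure D1:**
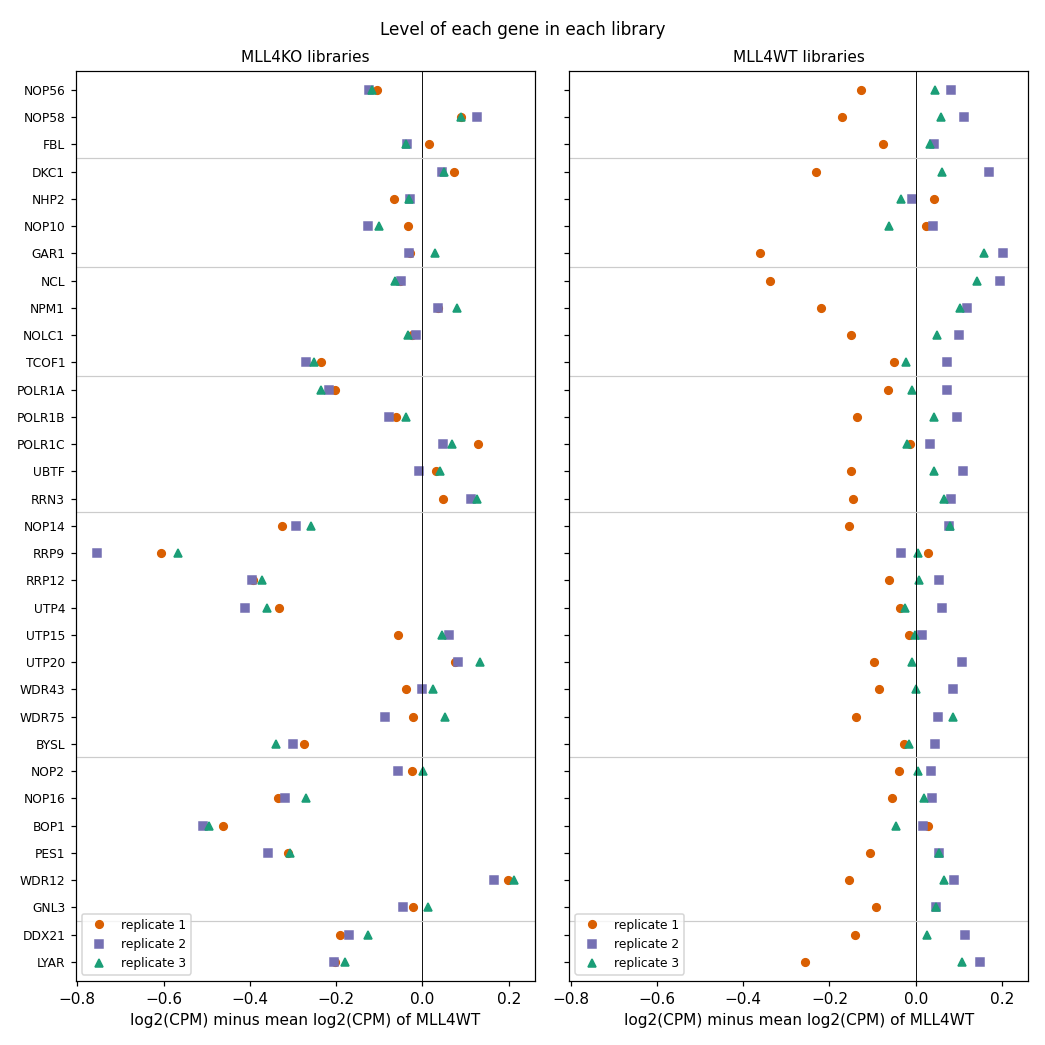
Level of each of the 33 genes in each library, as log2 CPM minus the mean log2 CPM of the 3 MLL4WT libraries, with MLL4KO on the left, MLL4WT on the right, roles separated by grey lines, and 1 symbol per replicate. The 3 MLL4KO libraries lie close together, while MLL4WT replicate 1 is the lowest MLL4WT library for 28 of the 33 genes.

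Within MLL4WT, replicate 1 stood apart for these genes. It was the lowest of the 3 MLL4WT libraries for 28 of the 33 (84.8%), against 41.5% of all tested genes, and lay a median of 0.14 below the mean of replicates 2 and 3 on the log2 scale. The gap was largest for GAR1, NCL and LYAR, at -0.54, -0.51 and -0.39. Replicate 1 was slightly above the mean of the others for RRP9, at 0.04, and NHP2, at 0.06. Without that library 18 of the 33 fell and 1 rose, or 54.5% lower, where 25.7% of all tested genes were lower, 23.7% higher and 49.5% called either way. That fit compares the 3 MLL4KO libraries with MLL4WT replicates 2 and 3 alone. Leaving out the lowest library raises the MLL4WT mean of a gene, so added falls among these genes are no independent result. The 7 added falls were NOP56, GAR1, NCL, NPM1, NOLC1, POLR1B and LYAR. Codes in the column names, of the form of flow cell identifiers, place MLL4WT replicate 1 alone on its code, so its code, its depth and its other properties cannot be told apart. MLL4KO replicate 1 shared a code with MLL4WT replicate 3, and MLL4KO replicates 2 and 3 shared another with MLL4WT replicate 2. All 11 genes that fell were lower in MLL4KO within both of those codes, by -0.61 to -0.19 and by -0.63 to -0.26 on the log2 scale. For the 10 of them without overlap between the genotypes that direction was fixed in advance. All 11 were also called from these same libraries, so the directions are no check on the codes. A fit with the code as a term called 18 lower and 1 higher, and its share over all tested genes is not given here. That term fits MLL4WT replicate 1 exactly, so its calls are no check apart from the fit that leaves the library out.

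**Figure D2:**
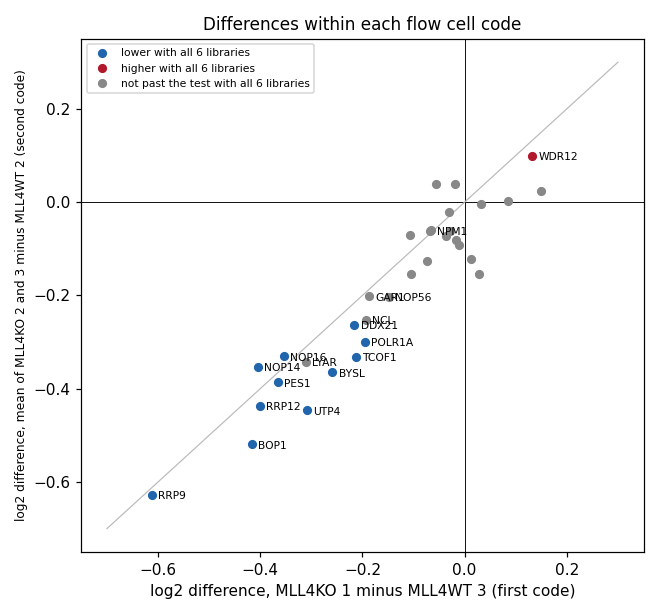
Log2 difference of CPM between MLL4KO and MLL4WT for each of the 33 genes within the 2 column-name codes that held both genotypes, with the first code (MLL4KO 1 against MLL4WT 3) on the x axis and the second (MLL4KO 2 and 3 against MLL4WT 2) on the y axis. All 11 genes that fell lie in the lower left and WDR12 in the upper right, and the grey line marks equal differences. For WDR12 and the 10 lower genes without overlap between the genotypes, these directions were fixed in advance.

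The palindrome CACGTG, the E-box that MYC and related factors can bind, was searched in windows from 250 bases before to 50 after the start, as given by RefSeq on GRCh38.p14, in which 28 of the 33 genes had at least 1 window. It was found for 14 of the 28 (50%), against 12.5% of 10659 tested genes and 8.77% of all 27305 genes of that table. In 13 of the 14 it began within 50 bases of a start. Of the genes that fell, 6 of 8 with a window held it (RRP9, NOP14, BYSL, DDX21, UTP4 and PES1), as did 8 of 19 that were not called and not WDR12, the gene that rose. A match describes these letters only. The stretches from 150 bases before to 20 after the start are shown for the gene with the largest fall (RRP9), the one that rose (WDR12) and 2 box C/D proteins that were not called, FBL with the motif and NOP56 without it; FBL was added after the matches were seen. CACGTG is in capitals and the rest in lower case.
RRP9 (chr3:51941885-51942054, minus strand): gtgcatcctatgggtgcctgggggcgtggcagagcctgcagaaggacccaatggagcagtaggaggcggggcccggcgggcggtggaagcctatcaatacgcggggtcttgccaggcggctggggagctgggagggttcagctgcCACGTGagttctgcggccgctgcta
FBL (chr19:39846360-39846529, minus strand): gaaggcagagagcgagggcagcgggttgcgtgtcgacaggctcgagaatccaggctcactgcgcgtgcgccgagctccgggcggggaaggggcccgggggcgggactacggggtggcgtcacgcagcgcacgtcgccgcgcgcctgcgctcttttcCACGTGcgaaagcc
WDR12 (chr2:202911654-202911823, minus strand): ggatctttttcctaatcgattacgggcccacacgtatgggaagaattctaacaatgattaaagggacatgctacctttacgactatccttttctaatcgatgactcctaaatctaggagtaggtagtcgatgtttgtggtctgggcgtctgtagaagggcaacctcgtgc
NOP56 (chr20:2652482-2652651, plus strand): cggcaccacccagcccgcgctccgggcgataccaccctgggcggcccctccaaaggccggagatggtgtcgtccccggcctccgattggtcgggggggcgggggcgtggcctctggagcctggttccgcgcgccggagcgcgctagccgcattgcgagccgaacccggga
In RRP9 the motif began 5 bases before the start, at -5, and spanned it, while in FBL it began at base 7 of the transcript. No CACGTG was in the whole WDR12 or NOP56 window.

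None of the 3 box C/D proteins was called. FBL, the ribose methyltransferase of these particles (chromosome 19, 39834458 to 39846414, GRCh38), was at 359, 346 and 346 CPM in the 3 MLL4KO libraries and 337, 366 and 363 CPM in the 3 MLL4WT libraries (log2 fold change -0.02 ± 0.05, SE; edgeR adjusted p = 0.721). NOP56, a scaffold protein of the particle, was at 364, 359 and 360 CPM in MLL4KO and 358, 414 and 403 CPM in MLL4WT, where replicate 1 was the lowest of all 6 libraries. It was not called with all libraries (log2 -0.12 ± 0.05, edgeR adjusted p = 0.0893), and was lower by -0.17 without MLL4WT replicate 1 (edgeR adjusted p = 2.04e-06). NOP58, the paired scaffold, was at 173, 177 and 172 CPM in MLL4KO and 144, 175 and 169 CPM in MLL4WT (log2 0.09 ± 0.06, edgeR adjusted p = 0.294), so that its MLL4KO values lay close to MLL4WT replicates 2 and 3.

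The 4 H/ACA proteins likewise overlapped between the genotypes. DKC1, the pseudouridine synthase dyskerin, was at 219, 215 and 216 CPM in MLL4KO and 177, 234 and 217 CPM in MLL4WT (log2 0.04 ± 0.08, edgeR adjusted p = 0.752). NHP2, an RNA-binding core protein, averaged 171 ± 2.42 CPM in MLL4KO and 176 ± 4.83 CPM in MLL4WT, and NOP10, the smallest core protein, 70.7 ± 2.38 CPM in MLL4KO and 75.2 ± 2.83 CPM in MLL4WT (SD, n = 3 each). GAR1 averaged 56.3 ± 1.34 CPM in MLL4KO and 57.5 ± 11.6 CPM in MLL4WT, a spread set by 44.1 CPM in MLL4WT replicate 1 beside 65.2 and 63.2 CPM in the other two. Without that library its log2 fold change was -0.18 (edgeR adjusted p = 0.00326).

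Among the abundant nucleolar proteins TCOF1 fell, and without MLL4WT replicate 1 all 4 did. Of all tested genes 21.6% were lower with all libraries and 25.7% without that library, which was low for most members. TCOF1 encodes treacle, which supports rDNA transcription and links it to processing, and was at 314, 306 and 310 CPM in MLL4KO and 357, 388 and 364 CPM in MLL4WT, with no overlap. It fell 1.19-fold (log2 -0.25 ± 0.05, edgeR adjusted p = 0.000787). NCL, the gene of nucleolin, had 1766, 1767 and 1749 CPM in MLL4KO and 1448, 2094 and 2018 CPM in MLL4WT, so MLL4WT replicate 1 lay below and the other two above every MLL4KO library. Its log2 fold change was -0.08 ± 0.14 (edgeR adjusted p = 0.699) with all libraries, -0.22 without MLL4WT replicate 1 (edgeR adjusted p = 5.93e-10) and 0.02 without MLL4WT replicate 2. NPM1, which encodes the histone and ribosomal protein chaperone nucleophosmin, was at 1997, 1996 and 2059 CPM in MLL4KO and 1672, 2114 and 2092 CPM in MLL4WT (log2 0.04 ± 0.08, edgeR adjusted p = 0.710). The direction of NPM1 turned without MLL4WT replicate 1, to -0.05 (edgeR adjusted p = 0.0337). NOLC1, a snoRNP chaperone, averaged 728 ± 4.71 CPM in MLL4KO and 743 ± 66.4 CPM in MLL4WT, and was lower by -0.09 on the log2 scale without MLL4WT replicate 1 (edgeR adjusted p = 0.00141).

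**Figure D3:**
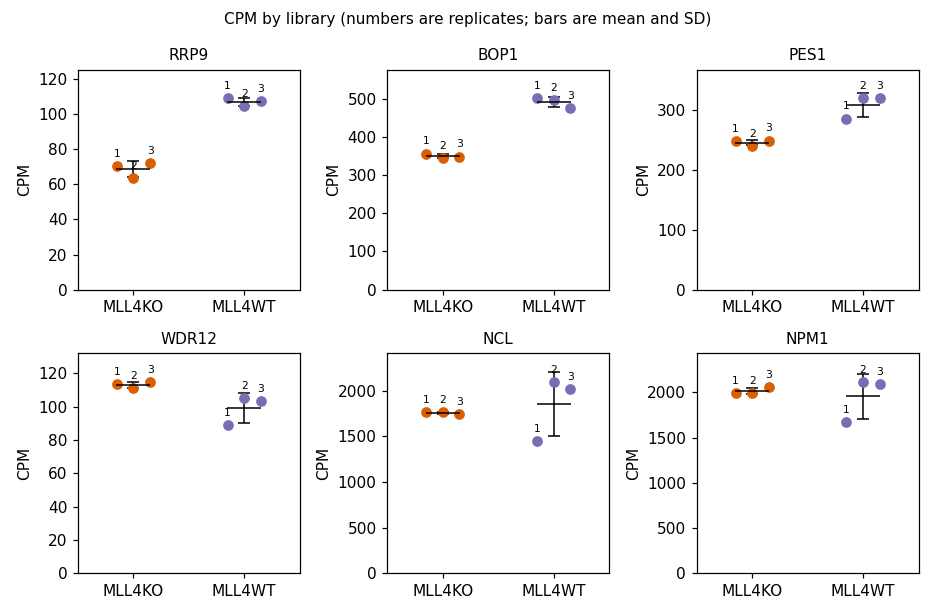
CPM of 6 genes in each library, MLL4KO left and MLL4WT right, with replicate numbers above the points and bars for mean and SD (n = 3 each). RRP9, BOP1 and PES1 are lower in all 3 MLL4KO libraries and WDR12 higher, while for NCL and NPM1 replicate 1 of MLL4WT lies below the MLL4KO values and the other 2 above them.

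RNA polymerase I and its factors showed 1 fall in 5 (20%), a share near the 21.6% of all tested genes that fell. POLR1A, the largest catalytic subunit (chromosome 2, 86020216 to 86106155), was at 197, 195 and 192 CPM in MLL4KO and 217, 238 and 225 CPM in MLL4WT, without overlap, and fell 1.17-fold (log2 -0.22 ± 0.05, edgeR adjusted p = 0.00248). POLR1B, the other large catalytic subunit, averaged 131 ± 1.76 CPM in MLL4KO and 137 ± 11.3 CPM in MLL4WT. It was not called (log2 -0.07 ± 0.06, edgeR adjusted p = 0.349), and lower by -0.12 without MLL4WT replicate 1 (edgeR adjusted p = 0.00675). UBTF, the factor that keeps rDNA open and starts transcription, was at 227, 221 and 229 CPM in MLL4KO and 200, 240 and 229 CPM in MLL4WT (log2 0.01 ± 0.06, edgeR adjusted p = 0.893). RRN3, which recruits the polymerase, averaged 168 ± 4.94 CPM in MLL4KO and 158 ± 13.5 CPM in MLL4WT (edgeR adjusted p = 0.283). POLR1C, a subunit shared with RNA polymerase III, was above every MLL4WT library in every MLL4KO library, at 72.3 ± 2.15 CPM in MLL4KO and 68.4 ± 1.40 CPM in MLL4WT, but did not pass the test (log2 0.08 ± 0.05, edgeR adjusted p = 0.219). It was called higher with total counts (log2 0.14, edgeR adjusted p = 0.0347) and upper quartile factors (log2 0.14, edgeR adjusted p = 0.0473), which shift all genes upward.

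Of the 9 small subunit factors 5 fell (55.6%), where 21.6% of all tested genes fell. Among the 5 was RRP9, which fell most of the 33 genes. RRP9, which binds the U3 snoRNA (chromosome 3, 51933430 to 51941941), was at 70.3, 63.4 and 72.2 CPM in MLL4KO and 109, 105 and 107 CPM in MLL4WT, with the highest MLL4KO library far below the lowest MLL4WT library. It fell 1.56-fold (log2 -0.64 ± 0.06, edgeR adjusted p = 4.48e-06). RRP12, a factor of 40S maturation and export, was at 114, 114 and 116 CPM in MLL4KO and 143, 155 and 150 CPM in MLL4WT, and fell 1.31-fold (edgeR adjusted p = 4.59e-05). UTP4, of the subcomplex that binds the precursor early, was at 124, 117 and 121 CPM in MLL4KO and 152, 162 and 153 CPM in MLL4WT, and fell 1.29-fold (edgeR adjusted p = 8.23e-05). For RRP12 and UTP4, too, no MLL4KO library reached the lowest MLL4WT library.

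BYSL, the bystin gene, of late 40S maturation, was at 77.1, 75.9 and 73.8 CPM in MLL4KO and 91.5, 96.3 and 92.3 CPM in MLL4WT, a 1.24-fold fall (edgeR adjusted p = 0.000372). NOP14, a processome protein, was at 182, 186 and 191 CPM in MLL4KO and 205, 240 and 241 CPM in MLL4WT, a 1.23-fold fall (edgeR adjusted p = 0.00171). In both genes the genotypes did not overlap. The remaining 4 processome genes overlapped and were not called. UTP15 and WDR43, of the same early subcomplex as UTP4, averaged 61.6 ± 2.72 and 221 ± 4.78 CPM in MLL4KO, against 60.8 ± 0.639 and 222 ± 13.1 CPM in MLL4WT. WDR75, also of that subcomplex, averaged 135 ± 6.47 CPM in MLL4KO and 137 ± 11.2 CPM in MLL4WT, and UTP20, a large processome protein, 89.6 ± 2.02 CPM in MLL4KO and 83.9 ± 5.94 CPM in MLL4WT (edgeR adjusted p between 0.251 and 0.897 for these 4). UTP20 was called higher with total counts (log2 0.15, edgeR adjusted p = 0.0463), and WDR75 lower with GC and length trends removed (log2 -0.13, edgeR adjusted p = 0.0362). Within the early subcomplex UTP4 was thus called and its partners UTP15, WDR43 and WDR75 were not, though the difference between them was not tested.

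**Figure D4:**
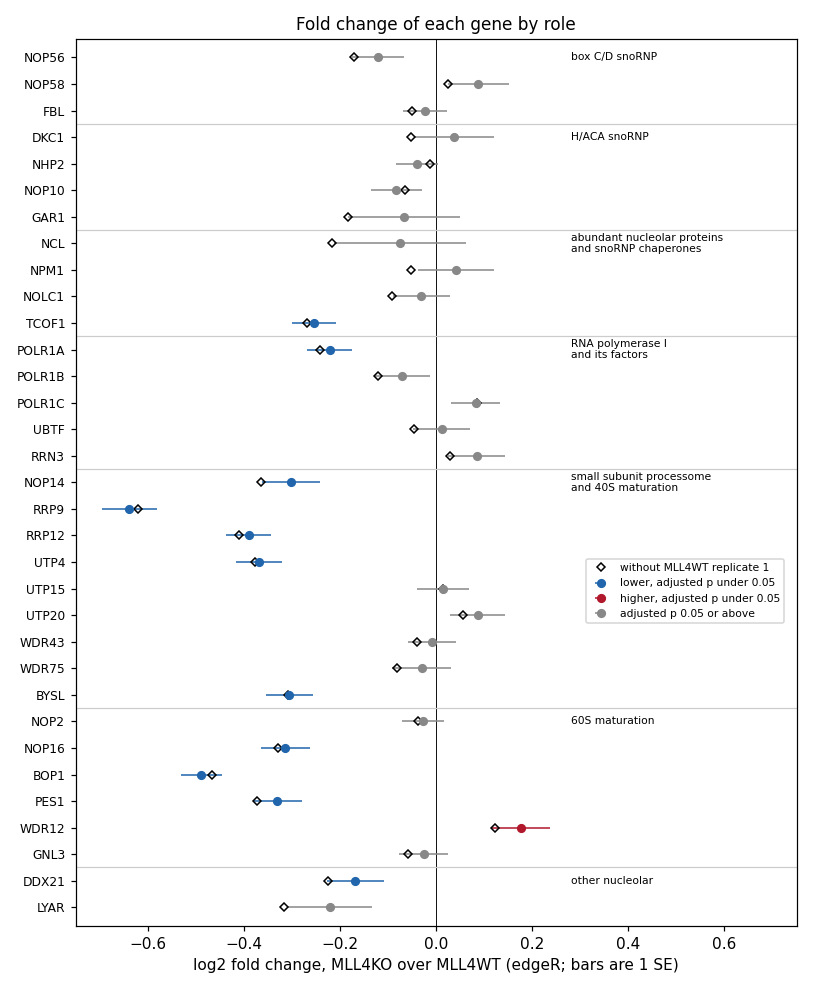
Log2 fold change, MLL4KO over MLL4WT, of the 33 genes grouped by role, with bars of 1 SE, colours by the edgeR call and open diamonds for the fit without MLL4WT replicate 1. RRP9 and BOP1 lie farthest left at -0.64 and -0.49, and leaving out the replicate moves NCL, LYAR and GAR1 further left.

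Among the 60S factors the 3 proteins of the PeBoW complex, which processes the precursor of the large subunit, did not move together. BOP1 (chromosome 8, 144262102 to 144291370) was at 356, 345 and 348 CPM in MLL4KO and 501, 497 and 476 CPM in MLL4WT, and fell 1.40-fold (log2 -0.49 ± 0.04, edgeR adjusted p = 3.55e-06). PES1, the pescadillo gene, was at 248, 240 and 248 CPM in MLL4KO and 285, 319 and 319 CPM in MLL4WT, and fell 1.26-fold (log2 -0.33 ± 0.05, edgeR adjusted p = 0.000275). WDR12 was at 113, 111 and 115 CPM in MLL4KO and 88.9, 105 and 103 CPM in MLL4WT, and rose 1.13-fold (log2 0.18 ± 0.06, edgeR adjusted p = 0.0356). None of the 3 overlapped between genotypes, but the WDR12 call was lost in 6 of 18 alternatives, among them each fit without an MLL4KO library and removal of GC and length trends (log2 0.06, edgeR adjusted p = 0.319).

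The ratio of counts within a library does not depend on library scaling. The ratio of WDR12 to BOP1 was 0.318, 0.321 and 0.329 in MLL4KO and 0.177, 0.212 and 0.217 in MLL4WT, or 1.60 times as high in MLL4KO. Such a ratio can still carry GC trends, as WDR12 had 40.8% GC and BOP1 65.3%. With GC and length trends removed, the log2 fold changes of WDR12 and BOP1 were 0.06 and -0.34, against 0.18 and -0.49 in the main fit. That of PES1 to BOP1 was 0.701 ± 0.0105 in MLL4KO and 0.627 ± 0.0520 in MLL4WT (SD, n = 3 each), with all MLL4KO libraries above all MLL4WT libraries. RRP9 to FBL, the U3-specific protein over the methyltransferase of the same particle, was 0.196, 0.183 and 0.209 in MLL4KO and 0.324, 0.286 and 0.296 in MLL4WT. The ratios were chosen after the levels were seen and are given without a test.

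The other 3 genes of this role were NOP16, which fell, and NOP2 and GNL3, which were not called. NOP16, a 60S assembly factor and known MYC target, was at 62.5, 63.2 and 65.5 CPM in MLL4KO and 75.9, 80.9 and 79.9 CPM in MLL4WT, and fell 1.24-fold (edgeR adjusted p = 0.000403). NOP2, an rRNA methyltransferase, averaged 189 ± 3.81 CPM in MLL4KO and 192 ± 4.86 CPM in MLL4WT, and GNL3, the nucleostemin gene, 120 ± 2.41 CPM in MLL4KO and 122 ± 6.66 CPM in MLL4WT (edgeR adjusted p = 0.635 and 0.709).

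DDX21, an RNA helicase of rRNA transcription and processing, was at 498, 505 and 520 CPM in MLL4KO and 516, 615 and 578 CPM in MLL4WT. It fell 1.12-fold (log2 -0.17 ± 0.06, edgeR adjusted p = 0.0372), with MLL4KO replicate 3 above MLL4WT replicate 1. The call held in 11 of 18 alternatives and was lost in each fit that left out any library other than MLL4WT replicate 1, as well as with total counts or upper quartile factors. LYAR, a nucleolar zinc finger protein gene, averaged 132 ± 1.38 CPM in MLL4KO and 152 ± 22.6 CPM in MLL4WT (log2 -0.22 ± 0.09, edgeR adjusted p = 0.0717), and without MLL4WT replicate 1 it was lower by -0.32 (edgeR adjusted p = 8.96e-09).

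Added over the 33 genes, the level was 9792, 9740 and 9877 CPM in MLL4KO and 9283, 11154 and 10819.5 CPM in MLL4WT. MLL4WT replicate 1 lay below the MLL4KO libraries in this sum and the other two above. NCL and NPM1 together made up 38.4% to 38.6% of it in MLL4KO and 33.6% to 38.0% in MLL4WT.

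The genes lay on 15 chromosomes, at most 7 on 1 of them. Of the 20 tested genes nearest to RRP9, 10 on each side, 12 fell and 3 rose at a median log2 fold change of -0.30. Of the 20 nearest to BOP1, 9 fell and 2 rose, at a median of -0.15, beside 167 falls and 80 rises among the 485 tested genes of chromosome 8. NOP58 and WDR12 are close to each other on chromosome 2, where 7 and 6 of the 20 nearest genes rose and 3 and 1 fell. Of all tested genes 21.6% fell and 19.8% rose. Of the other neighbourhoods some went with their member and some did not. Near UTP4, which fell, 5 fell and 2 rose, at a median of -0.05. Near BYSL, which fell, 7 fell and 5 rose, at a median of -0.13. Near DKC1, not called, 11 of 20 fell and 1 rose, at a median of -0.19. Near DDX21, which fell, 7 rose and 5 fell, at a median of 0.16. Near RRP12, which fell, 4 rose and 2 fell, at a median of 0.02. The part of these neighbourhoods in the changes of the genes was not tested.

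Annotated snoRNA genes lay inside 6 of the 33 genes on the same strand (18.2%), against 1.60% of 12601 tested protein-coding genes. These hosts were NOP56, NOP58, DKC1, NCL, WDR43 and GNL3, with 22 snoRNA genes in all. With all libraries edgeR called none of the 6, where 41.4% of all tested genes were called, and 1, NOP56, had an unadjusted p under 0.05. NOP56 and NCL fell without MLL4WT replicate 1, where 25.7% of all tested genes were lower. The exons of the genes that fell had a median GC content of 57.1%, against 46.3% for those not called and 49.8% for all tested genes. With GC and length trends removed, the 11 that fell had log2 fold changes between -0.46 and -0.16 and stayed called. In that fit RRP9 and BOP1 were at -0.46 and -0.34, smaller falls than the -0.64 and -0.49 of the main fit. The part of GC content in the falls was not tested.

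Reads of a gene and of an overlapping gene on the other strand cannot be told apart here, since strand is not stated. Genes with at least 10% of a member's counts shared exonic bases on the opposite strand with 5 of the 33. UTP4 shared 70 bases with CHTF8 and NOP16 shared 227 with HIGD2A, and both of these members fell, so their values are less certain. POLR1C shared 348 with XPO5 and 129 with YIPF3, NHP2 shared 414 with RMND5B, and GNL3 shared 5 with GLT8D1. Pseudogenes named after a member held few counts, at 0.701% of those of NPM1 for 45 pseudogenes and 4.79% of those of RRN3 for 2, so the split between copies is uncertain for RRN3.

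Of 140 other ribosome biogenesis genes, listed by known role, 56 were lower (40%), 6 were higher (4.29%) and 78 missed the threshold, where 21.6% of all tested genes were lower and 19.8% higher. Their median log2 fold change was -0.14, against -0.004 for all tested genes, and -0.083 with total counts, against 0.058 for all tested genes. The pooled SD of their library medians was 0.059 on the log2 scale. Without MLL4WT replicate 1, 95 fell (67.9%) and 8 rose (5.71%), where 25.7% of all tested genes were lower and 23.7% higher. That library was the lowest of MLL4WT for 95 of the 140 (67.9%), against 41.5% of all tested genes.

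The other small subunit genes fell in 24 of 49 (49.0%) and rose in 1 (2.04%), where 21.6% of all tested genes fell and 19.8% rose. DCAF13, a processome protein on chromosome 8, fell 1.67-fold to 112 ± 3.16 CPM in MLL4KO, against 185 ± 13.4 CPM in MLL4WT (edgeR adjusted p = 1.31e-06), and PDCD11, needed for processing of both subunits, fell 1.47-fold (edgeR adjusted p = 2.11e-05). WDR36 rose 1.12-fold (edgeR adjusted p = 0.0144) and was no longer called at the depth of the shallowest library and with GC and length trends removed.

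The other large subunit genes fell in 22 of 58 (37.9%) and rose in 4 (6.9%), where 21.6% of all tested genes fell and 19.8% rose. URB2 had 42.5, 44.5 and 44.3 CPM in MLL4KO and 84.0, 85.9 and 82.1 CPM in MLL4WT, a 1.92-fold fall that was larger than that of any of the 33 members (log2 -0.94 ± 0.05, edgeR adjusted p = 8.11e-08). SBDS, which with a GTPase frees new 60S particles for translation, fell 1.49-fold to 71.1 ± 2.45 CPM in MLL4KO, against 105 ± 6.15 CPM in MLL4WT (edgeR adjusted p = 8.34e-06). RRP1B and URB1 rose 1.33-fold and 1.31-fold (edgeR adjusted p = 1.33e-05 and 1.97e-05). Both lie on chromosome 21, where 100 of 147 tested genes rose and 3 fell.

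Of the other RNA polymerase I genes 4 of 10 fell (40%) and 1 rose (10%), where 21.6% of all tested genes fell and 19.8% rose. POLR1G and POLR1H, both polymerase subunits, fell 1.55-fold and 1.36-fold (edgeR adjusted p = 5.72e-06 and 0.000615), and TAF1B, of the promoter factor SL1, rose 1.18-fold (edgeR adjusted p = 0.0129; 0.0528 without MLL4KO replicate 1). The exosome, which trims rRNA ends, fell in 3 of 14 genes (21.4%), a share near the 21.6% of all tested genes, with EXOSC2 at 1.22-fold and EXOSC3 at 1.18-fold (edgeR adjusted p = 0.00232 and 0.00471), and EXOSC3 was not called after thinning (edgeR adjusted p = 0.0749). The snoRNP assembly genes fell in 3 of 9 (33.3%), where 21.6% of all tested genes fell. Among them were the ATPase gene RUVBL2 at 1.23-fold (edgeR adjusted p = 0.000305) and the H/ACA assembly gene NAF1 at 1.19-fold (edgeR adjusted p = 0.0282). The NAF1 call was lost in 7 of 18 alternatives.

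**Figure D5:**
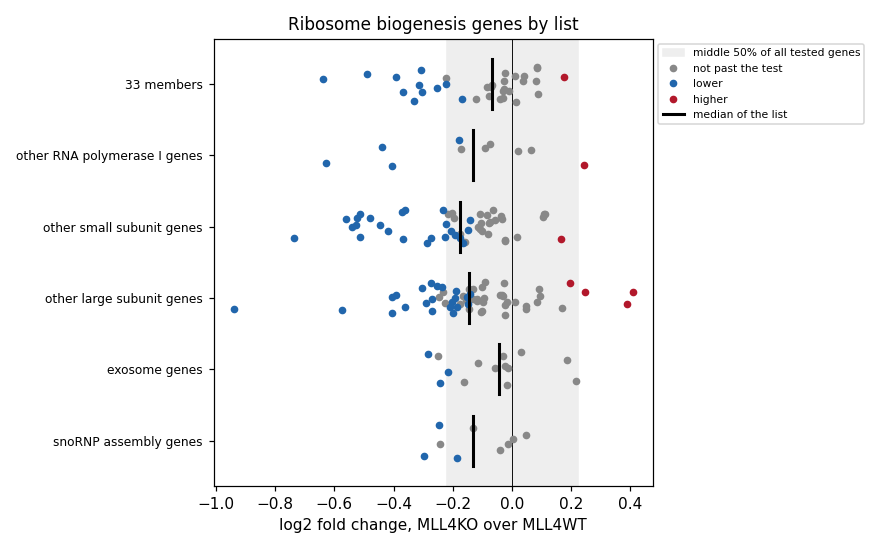
Log2 fold change, MLL4KO over MLL4WT, of the 33 members and of 5 lists of other ribosome biogenesis genes, 1 point per gene, with the median of each list as a black bar and the middle 50% of all tested genes shaded. With TMM all 6 medians lie below 0, lowest for the other small subunit genes at -0.18, while that of the exosome genes is 0.02 with total counts and 0.01 with upper quartile factors, where the median of all tested genes is 0.058 and 0.050, and the point farthest left is URB2 at -0.94.

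MYC was at 389, 375 and 396 CPM in MLL4KO and 404, 412 and 385 CPM in MLL4WT, with overlap (log2 -0.05 ± 0.04, edgeR adjusted p = 0.410). Its log2 fold change was 0.07 with GC and length trends removed, and 0.012 with total counts and 0.0046 with upper quartile factors, where the median of all tested genes was 0.058 and 0.050. Among 9 genes of the MYC network 3 rose (33.3%) and 1 fell (11.1%), where 19.8% of all tested genes rose and 21.6% fell. The 44.4% called either way was near the 41.4% of all tested genes. MXD4 and MXI1, whose proteins pair with MAX and oppose MYC, rose, with 50.3 and 54.0 CPM in MLL4KO, against 28.6 and 37.9 CPM in MLL4WT (edgeR adjusted p = 3.19e-06 and 0.000185), and MLX, of the parallel MLX network, fell 1.46-fold (edgeR adjusted p = 1.19e-05).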

How the data were processed

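Per the file headers and the values, the authors deposited expected counts, given per Ensembl gene ID as whole numbers and not normalised. The submitters' processing notes list Salmon 1.8.0, DESeq2 1.44.0 and hg38 without saying what each was used for. Which annotation release was used is not given in the sources. The members and lists were chosen with earlier results of these data known.

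A gene name table supplied symbols and held 55764 of 59715 IDs; coordinates, exon lengths and GC content came from GENCODE 29 on GRCh38, which held 56227. Counts were whole, so none was rounded. The filterByExpr function (edgeR 4.0.16, R 4.3.3) left 14543 genes with 99.9% of counts, which were scaled by TMM and compared by the robust quasi-likelihood test with 4 residual degrees of freedom and Benjamini-Hochberg adjustment at 0.05. Standard errors came from the F statistic. The biological coefficient of variation was 5.62%. At the shallowest depth 3 counts are 0.439 CPM, far under every member.

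Promoter windows came from RefSeq, and for 29 of 36 windows the bases after the start occur in a GENCODE transcript of the gene. Simulated counts of the 14543 genes, with 200 genes changed in each of 3 draws, gave calls for 16.4% of those changed 1.15-fold and 45.9% of those changed 1.25-fold; larger changes of 1.5-fold were called in 71.8% and of 2-fold in 89.2%. Fewer genes changed there than here, so these shares do not carry over. All 33 members are named; every library is given for called members and for NOP56, NOP58, FBL, DKC1, NCL, NPM1, POLR1A, UBTF and BYSL. Of each other list up to 2 rises and 2 falls are named, largest first, at 5 CPM or more and without overlap. Same-numbered libraries did not deviate together (correlations 0.0245, 0.0341 and -0.0146).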

Additional observations from a re-analysis of the deposited data

How the results depend on the processing

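The 18 alternatives were 3 other library scalings, no filter and a stricter one (5 CPM in 3 libraries), DESeq2 1.42.0, limma-voom 3.58.1, a replicate block, a flow cell term, each of the 6 libraries left out, thinning to 6829400 counts, removal of GC and length trends (lowess, span 0.3), and a fit without chromosomes 8 and 21, which gives no value for BOP1, DCAF13, RRP1B, URB1 and MYC. Of the 12 called members, 10, all lower, were called in every alternative that measured them. Total counts and upper quartile factors shift all genes alike: the median log2 fold change of all tested genes was 0.058 and 0.050 with them, against -0.004 with TMM. The cause of the other changes below was not tested. Shares called over all tested genes are given for the main fit and the fit without MLL4WT replicate 1 only. Counts called in the other fits therefore cannot be set beside a share.

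Members called higher numbered 3 with total counts (WDR12, POLR1C and UTP20) and 2 with upper quartile factors (WDR12 and POLR1C). They numbered 0 with DESeq2, where 1 had an unadjusted p under 0.05, and 0 after thinning, where edgeR gave 0 at an unadjusted p under 0.05. Members called lower numbered 18 with the flow cell term, which fits MLL4WT replicate 1 exactly. LYAR was also called lower with no filter (edgeR adjusted p = 0.00143), and LYAR, POLR1B and WDR75 with GC and length trends removed (edgeR adjusted p = 0.0124, 0.0264 and 0.0362). The members' median log2 fold change was -0.0044 with total counts, as far below that of all tested genes as with TMM, to 2 decimals. Of the 140 other ribosome biogenesis genes, 12 were higher with total counts, 12 with upper quartile factors and 11 with GC and length trends removed, 98 were lower with the flow cell term and 36 after thinning, and their median was -0.083 with total counts. After thinning, 1739 of all genes were higher and 2035 lower.

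Leaving out 1 library gave 0 to 1 members higher, with 0 in each fit without an MLL4KO library (1 at an unadjusted p under 0.05 in each, by edgeR), and 10 to 18 members and 40 to 95 other genes lower, both highest without MLL4WT replicate 1.

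The log2 fold changes of genes whose direction turned were as follows, and NHP2 and NPM1 were called where so stated. With total counts, within the shift of all genes, they were FBL 0.039, NHP2 0.022, NOLC1 0.031, WDR43 0.052, WDR75 0.032, NOP2 0.033, GNL3 0.036, MYC 0.012 and KMT2D 0.048. With upper quartile factors, within that shift, they were FBL 0.031, NHP2 0.014, NOLC1 0.023, WDR43 0.044, WDR75 0.024, NOP2 0.025, GNL3 0.028, MYC 0.0046 and KMT2D 0.040. WDR43 was at 0.0015 with no filter and 0.00076 with the stricter one. With the flow cell term they were DKC1 -0.062, NPM1 -0.063 (edgeR adjusted p = 0.0136), UBTF -0.055 and UTP15 -0.0046. After thinning they were FBL 0.021, UBTF -0.018 and WDR75 0.068. With GC and length trends removed they were FBL 0.11, NHP2 0.11 (edgeR adjusted p = 0.0309), NPM1 -0.0033, UTP15 -0.089, UTP20 -0.029, NOP2 0.023 and MYC 0.070. Over the fits that left out 1 library the ranges were -0.051 to 0.0022 for FBL, -0.052 to 0.13 for DKC1, -0.18 to 0.025 for GAR1, -0.22 to 0.025 for NCL, -0.053 to 0.10 for NPM1, -0.093 to 0.024 for NOLC1, -0.046 to 0.070 for UBTF, -0.000043 to 0.061 for UTP15, -0.040 to 0.039 for WDR43, -0.082 to 0.020 for WDR75, -0.058 to 0.0030 for GNL3 and -0.040 to 0.015 for KMT2D.

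The replicate block called 11 members lower and 1 higher, at a median of -0.04, and 51 other genes lower and 7 higher, and changed no call of a member. The numbers mark no stated pairing, and not every library correlated best with its own number.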
